A study of Mus musculus with 14 samples.

Results

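The 10 genes described here belong to the AP-1, Egr and Myc families and are grouped under the heading of immediate early genes. They were taken by name from both count tables, in which they are 10 of 53735 gene symbols. They are Fos, Fosb, Fosl1 and Fosl2 (the Fos family), Jun, Junb and Jund (the Jun family), and Egr1, Atf3 and Myc. RNA was measured by poly-A RNA-seq in 14 hearts of male C57BL/6 mice. Knockout hearts (cKO) had the genotype Fam210a fl/fl, alphaMHC MCM/+, in which Fam210a, a gene for a mitochondrial protein, can be recombined by a tamoxifen-activated Cre. Control hearts were alphaMHC MCM/+, so that both groups carried the Cre and both were named by their time after tamoxifen. The Cre is driven by the cardiomyocyte Myh6 promoter, and the other cells of the heart are expected to keep the gene. Early hearts were taken at about 5 weeks after tamoxifen (4 cKO and 4 control) and late hearts at about 10 weeks (3 cKO and 3 control). The age of the mice was not given in the labels.

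Typical immediate early genes are switched on within minutes of a stimulus, without new protein synthesis, mainly by MAP kinases acting on factors already bound at their promoters. Not every gene of the group behaves so, and Jund is kept at a steady level in resting cells. Fos and Jun proteins pair through leucine zippers to form AP-1, and Fos proteins cannot pair with themselves, while Jun proteins can. Egr1 is a zinc finger factor, Atf3 a bZIP factor of the stress response, and Myc pairs with Max to drive growth and ribosome genes. In the heart these genes respond to stretch, pressure load, ischaemia and also to the removal and handling of the tissue, so each heart is given singly below. The hearts were flash frozen per the labels' protocols, and the time from removal to freezing was not given in the sources used here.

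Promoters were examined because they show which known binding letters sit beside genes that later moved in opposite directions. Of the 10 genes, 7 matched the RefSeq promoter table (GRCm38.p6), which holds 250 bases before and 50 bases after each start, 300 in all. Fosl1, Egr1 and Myc were not matched. Jun and Fosb fell in late cKO hearts, and Fosl2 and Atf3 rose. Their promoters are printed 5′ to 3′ on the strand of the gene, with the matched motif in capitals.

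Jun, chr4:95052173-95052472, minus strand, Jun-type AP-1 site in capitals: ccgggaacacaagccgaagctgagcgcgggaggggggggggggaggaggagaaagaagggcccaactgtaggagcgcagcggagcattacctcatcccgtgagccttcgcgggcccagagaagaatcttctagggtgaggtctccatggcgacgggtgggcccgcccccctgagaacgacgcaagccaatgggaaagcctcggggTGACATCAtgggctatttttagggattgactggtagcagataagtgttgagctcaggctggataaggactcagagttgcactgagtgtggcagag
Fosb, chr7:19309996-19310295, minus strand, Egr site in capitals: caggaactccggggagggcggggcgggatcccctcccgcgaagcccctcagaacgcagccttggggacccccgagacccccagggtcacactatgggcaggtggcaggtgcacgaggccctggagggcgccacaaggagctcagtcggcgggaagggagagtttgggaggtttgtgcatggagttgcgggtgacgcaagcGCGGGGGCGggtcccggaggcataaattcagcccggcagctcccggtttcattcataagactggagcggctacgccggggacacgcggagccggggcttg
Fosl2, chr5:32136222-32136521, plus strand, Egr site in capitals: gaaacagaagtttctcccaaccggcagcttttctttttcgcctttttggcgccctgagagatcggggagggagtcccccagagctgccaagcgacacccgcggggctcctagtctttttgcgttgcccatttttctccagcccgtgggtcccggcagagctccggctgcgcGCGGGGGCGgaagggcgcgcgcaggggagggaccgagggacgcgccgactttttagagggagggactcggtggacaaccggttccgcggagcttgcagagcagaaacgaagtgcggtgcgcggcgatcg
Atf3, chr1:191183284-191183583, minus strand, C/EBP-ATF element on the other strand in capitals: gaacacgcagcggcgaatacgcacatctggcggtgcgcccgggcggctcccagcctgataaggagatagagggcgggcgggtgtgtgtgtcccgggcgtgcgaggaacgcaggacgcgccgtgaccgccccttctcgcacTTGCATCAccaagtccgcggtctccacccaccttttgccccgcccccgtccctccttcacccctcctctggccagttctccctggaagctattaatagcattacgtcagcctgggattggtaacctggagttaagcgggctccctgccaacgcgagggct

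The Jun-type AP-1 site TGACATCA began at position -45 from the Jun start and was in 3.62% of all 32851 promoters of the same length. An Egr site, GCGNGGGCG, began at position -50 from the Fosb start and -79 from the Fosl2 start, and 5.55% of all promoters held one. The C/EBP-ATF element TGATGNAA began at position -110 from the Atf3 start, against 3.97% of all promoters. Thus 1 gene that fell and 1 that rose shared the same Egr letters. None of the 7 windows held the AP-1 site TGACTCA (in 5.2% of all promoters), the cyclic AMP element TGACGTCA (1.79%), the E-box CACGTG (7.15%) or the CArG box of serum response factor (1.63%). Both strands were searched for exact matches only, so a site that differs from these letters by 1 was not counted. The Atf3 window, for example, holds TTACGTCA, which is 1 letter from the cyclic AMP element. The RefSeq start used for Jund lies upstream of the gene model given below, so that its window does not touch that model, and the starts used for Fosl2 and Atf3 lie inside theirs. A match describes letters in the window and is not a measured binding site. Letters outside the windows were not searched, so a motif absent here may lie further from the start.

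Counts were turned into CPM (counts scaled to a common library size) with TMM-scaled library sizes, and each table was tested alone with edgeR's quasi-likelihood test, adjusted by the Benjamini-Hochberg method over all genes tested. A gene is called at an adjusted p under 0.05, and every adjusted p below is from this test unless another tool is named. Nothing in the labels ties each library to its own animal, and a p-value here reflects only how much these samples vary. The labels of early cKO replicate 4 conflict, since the title and description call it a knockout and the genotype field carries the control genotype. Replicate 2 of the same group carried atrial RNA, with Bmp10, an atrial growth factor, at 164 CPM and at most 0.0592 CPM in any other early heart. Late control 3 held 104 CPM of Bmp10, against at most 0.754 CPM in the other late hearts. These hearts are named at several of the results below.

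Early, 2 of the 9 genes tested, Fosl2 and Myc, were called higher in cKO hearts, and none was called lower. By DESeq2 also none was lower, and none was lower at an unadjusted p under 0.05 in edgeR, while 7 were higher at that level, against 5.54% of all genes higher and 4.71% lower. At an adjusted p under 0.05, 0.517% of all 13529 genes tested were called higher and 0.0961% lower. The fitted log2 fold change was above 0 for all 9 genes, with a median of 1.09 against 0.00 over all genes. Fosl1 was too low to be tested. Groups did not overlap for 3 of the 9 genes (Fosl2, Junb and Myc), all with cKO higher, against 2.98% of all genes with cKO higher and 2.68% with cKO lower.

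Late, 4 of the 10 genes were called higher (Fosl1, Fosl2, Atf3 and Myc) and 4 lower (Fosb, Jun, Junb and Egr1), while Fos and Jund were not called. Of all 14942 genes tested late, 31.8% were called higher and 33.2% lower, so a count of 4 in either direction is near the background. Groups did not overlap for 4 genes with cKO higher and 3 with cKO lower, against 34% and 35.9% of all genes. The direction of each gene and its size, rather than the count, are what follows.

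**Figure D1:**
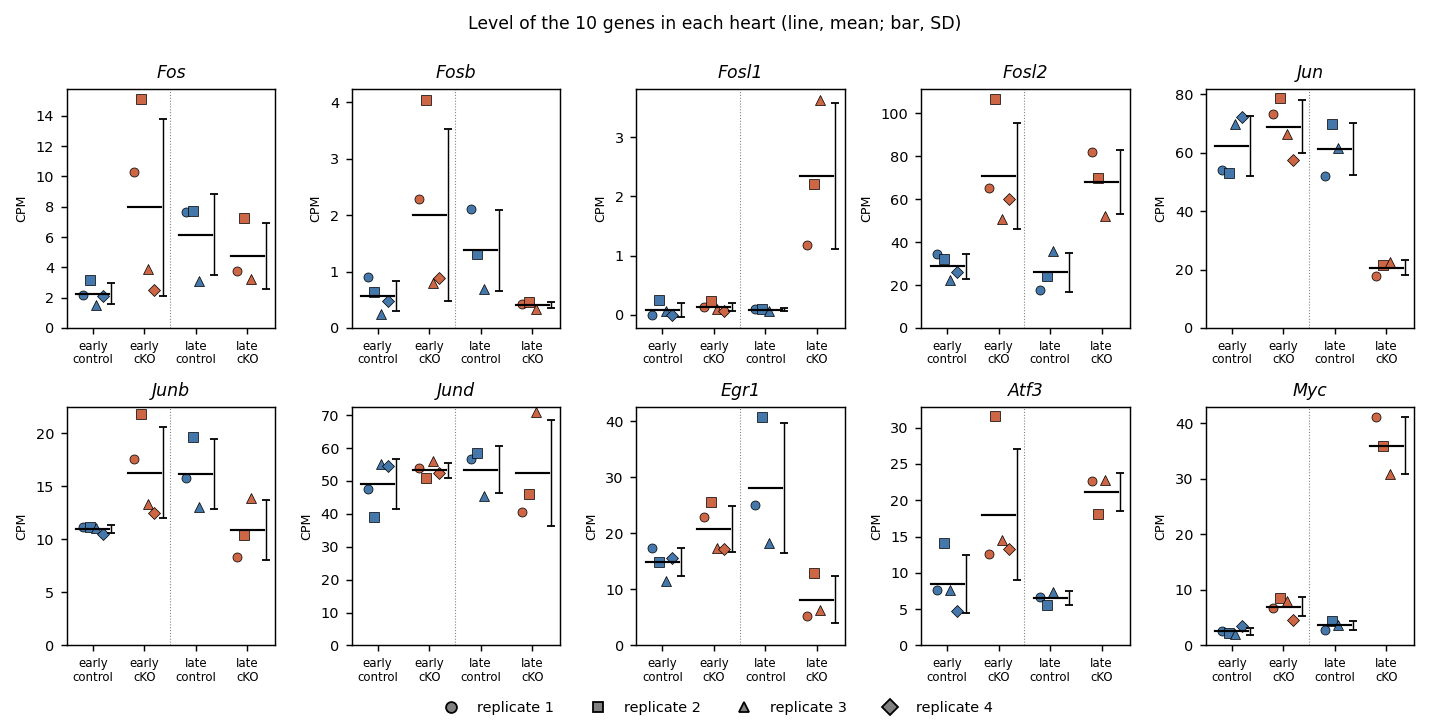
Level of each of the 10 genes (CPM) in each of the 14 hearts, by group; points are single hearts marked by replicate, lines are group means and bars SD. Myc and Fosl2 stand above every control at both times, while Jun and Egr1 lie below every control at the late time only.

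Among the Fos family, Fos itself, the founding AP-1 gene (chromosome 12, 85473890 to 85477273, plus strand, GRCm38), varied most between early cKO hearts. Early cKO hearts held 10.3, 15.1, 3.88 and 2.54 CPM in replicates 1 to 4, and controls held 2.15, 3.18, 1.54 and 2.13 CPM. Replicates 1 and 2 of the cKO group were high, replicate 3 was just above the highest control and replicate 4 lay within the controls. The means were 7.96 ± 5.84 and 2.25 ± 0.685 CPM (SD, n = 4 each), and the log2 fold change of 1.81 (SE 0.48) was not called (adjusted p = 0.17). Without early cKO replicate 2 it was 1.29 (adjusted p = 0.429), and without replicate 4 it was 2.10 and called (adjusted p = 0.02). Late, the cKO hearts held 3.76, 7.27 and 3.25 CPM and the controls 7.68, 7.70 and 3.09 CPM. The late groups overlapped, with a log2 fold change of -0.36 (SE 0.39, adjusted p = 0.437). Late control 3, the heart with atrial Bmp10, was the lowest, and without it the log2 fold change was -0.69 (adjusted p = 0.097).

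Fosb, which encodes a second strongly inducible Fos protein (chromosome 7, 19302696 to 19310051, minus strand), followed Fos early. Its early cKO levels were 2.28, 4.05, 0.797 and 0.885 CPM, and those of controls were 0.897, 0.637, 0.256 and 0.474 CPM. The same 2 cKO hearts, replicates 1 and 2, were high, and the other two lay within the controls (log2 fold change 1.78, SE 0.55, adjusted p = 0.255). Without early cKO replicate 2 it was 1.17 (adjusted p = 0.611). Late, Fosb stood at 0.421, 0.455 and 0.343 CPM in cKO hearts and at 2.12, 1.32 and 0.689 CPM in controls. All 3 cKO hearts were below every control, and Fosb fell by 1.74 in log2 units (SE 0.43, adjusted p = 0.00585). Late Fosb levels are low, since the cKO mean was 0.406 ± 0.0575 CPM (SD, n = 3).

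Fosl1, which encodes Fra-1, a Fos protein without the transactivation domain of Fos, was almost absent from every control group. Early it had 9 counts over the 4 cKO hearts and 5 over the 4 controls, a ratio of 1.67 whose 95% exact interval of 0.502 to 6.33 includes no change. Such intervals cover counting error only. Early controls 1 and 4 had no count, which at a floor of 3 counts allows up to 0.179 and 0.178 CPM. Late, the cKO hearts had 39, 78 and 106 counts (1.17, 2.22 and 3.63 CPM), and the controls had 3, 3 and 2 counts (0.098, 0.094 and 0.060 CPM). Every late cKO heart was far above every control, with a ratio of 27.4 (95% exact interval 13.7 to 64.2). The fitted log2 fold change was 4.74 (SE 0.56, adjusted p = 8e-05). Fosl1 lies on chromosome 19 from 5447547 to 5455946 on the plus strand and overlaps Ccdc85b on the other strand, and the library kit does not mark the strand. Reads of the shared stretch cannot be told apart, and Ccdc85b moved in the opposite direction late (log2 fold change -1.45, SE 0.27, adjusted p = 0.00135).

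Fosl2, which encodes Fra-2, a Fos-related protein studied in fibrotic disease (chromosome 5, 32135801 to 32157842, plus strand), was higher at both times. Early cKO levels were 65.4, 107, 50.9 and 59.9 CPM, and those of controls were 34.7, 32.2, 22.2 and 26.0 CPM. Every cKO heart, including replicate 4, was above every control, by 2.46-fold in the fit (log2 fold change 1.30, SE 0.21, adjusted p = 0.0121; exact two-sided permutation p = 0.0286, the smallest that 4 against 4 hearts can give). The call was lost without early control 3 (adjusted p = 0.0596) or control 4 (adjusted p = 0.0517), or with cKO replicate 4 counted as a control (adjusted p = 0.0885), over a range of 1.85e-13 to 0.0885 in all alternatives. Late, the cKO hearts held 82.2, 69.7 and 52.3 CPM and the controls 17.7, 24.3 and 35.7 CPM. The late rise was 2.62-fold (log2 fold change 1.39, SE 0.25, adjusted p = 0.00115), again with no overlap (exact permutation p = 0.1, the smallest that 3 against 3 can give).

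Among the Jun family, Jun, the main partner of Fos (chromosome 4, 95049034 to 95052222, minus strand), separated the times most clearly. The 4 early cKO hearts held 73.3, 78.7, 66.2 and 57.6 CPM and controls 54.2, 52.9, 69.9 and 72.1 CPM. The early groups overlapped, with cKO replicates 1 and 2 above every control and controls 1 and 2 below every cKO heart (log2 fold change 0.15, SE 0.12, adjusted p = 0.723). Late, cKO hearts held 17.7, 21.6 and 22.5 CPM and controls 52.1, 69.7 and 61.8 CPM. All 3 cKO hearts were below every control, and Jun was 2.97-fold lower (log2 fold change -1.57, SE 0.15, adjusted p = 2.38e-05). The antisense gene Junos overlaps Jun but had at most 30 counts in any heart.

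Junb, a Jun protein that often opposes Jun (chromosome 8, 84974484 to 84978718, minus strand), showed small changes of opposite sign. In early cKO hearts the levels were 17.6, 21.8, 13.3 and 12.4 CPM, all above the controls at 11.2, 11.2, 11.1 and 10.5 CPM. The controls were close to each other, and the log2 fold change was 0.57 (SE 0.15, adjusted p = 0.17; exact permutation p = 0.0286). Without early cKO replicate 4 it was called (adjusted p = 0.0373), and without replicate 2 it was 0.39 (adjusted p = 0.385). Late, cKO hearts held 8.33, 10.4 and 13.9 CPM and controls 15.8, 19.7 and 13.1 CPM. Replicate 3 of the late cKO group lay within the controls, and Junb fell by 0.57 in log2 units (SE 0.21, adjusted p = 0.04). That call was lost without late control 1 or 2 or without cKO replicate 1 or 2, with adjusted p up to 0.159. The peroxiredoxin gene Prdx2 overlaps Junb on the other strand, had up to 11260 counts and also fell late (log2 fold change -0.54, SE 0.18, adjusted p = 0.0268), which leaves the late value of Junb uncertain.

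Jund, the Jun protein kept at a steady level in resting cells (chromosome 8, 70698949 to 70700616, plus strand), did not pass the test at either time. Early cKO hearts held 53.9, 50.8, 56.0 and 52.3 CPM and controls 47.5, 39.2, 55.1 and 54.6 CPM (log2 fold change 0.12, SE 0.09, adjusted p = 0.727). Late cKO hearts held 40.6, 46.1 and 70.9 CPM and controls 56.6, 58.4 and 45.3 CPM (log2 fold change -0.03, SE 0.21, adjusted p = 0.923). The groups overlapped at both times, and late cKO replicate 3 was the highest late heart.

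Egr1, a zinc finger factor induced through serum response factor (chromosome 18, 34859823 to 34864984, plus strand), had its largest change late. Early cKO levels were 22.9, 25.5, 17.4 and 17.2 CPM and those of controls 17.4, 14.97, 11.5 and 15.6 CPM. Only cKO replicate 4 and control 1 crossed, and the log2 fold change of 0.48 (SE 0.15) was not called (adjusted p = 0.253). Late, cKO hearts held 5.17, 12.95 and 6.34 CPM and controls 25.2, 40.8 and 18.2 CPM. Every cKO heart was below every control, and Egr1 was 3.43-fold lower (log2 fold change -1.78, SE 0.38, adjusted p = 0.00268).

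Atf3, a stress-induced bZIP protein that also pairs with Jun proteins (chromosome 1, 191170296 to 191218039, minus strand), rose late. The 4 early cKO hearts held 12.7, 31.6, 14.6 and 13.3 CPM and controls 7.59, 14.1, 7.62 and 4.68 CPM. Replicate 2 of the cKO group stood far above its group, and control 2 was above 2 of the cKO hearts. The early log2 fold change was 1.09 (SE 0.33, adjusted p = 0.253), and 0.68 without cKO replicate 2 (adjusted p = 0.58). Late, cKO hearts held 22.6, 18.1 and 22.7 CPM and controls 6.67, 5.53 and 7.34 CPM. The late groups were tight and well apart, with Atf3 3.24-fold higher (log2 fold change 1.70, SE 0.16, adjusted p = 2.03e-05).

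Myc, a transcription factor gene that drives growth and division (chromosome 15, 61985391 to 61990374, plus strand), had the largest late rise of the 10 genes after Fosl1. In early cKO hearts the levels were 6.77, 8.55, 7.92 and 4.602 CPM and those of controls 2.51, 2.23, 2.11 and 3.49 CPM. Every early cKO heart was above every control, including replicate 4, and Myc was 2.68-fold higher (log2 fold change 1.42, SE 0.21, adjusted p = 0.00873; exact permutation p = 0.0286). Late, cKO hearts held 41.1, 35.9 and 30.9 CPM and controls 2.83, 4.37 and 3.66 CPM. The late means were 35.9 ± 5.10 and 3.62 ± 0.768 CPM (SD, n = 3 each), a 9.92-fold rise (log2 fold change 3.31, SE 0.19, adjusted p = 1.37e-06). The early call was kept in all 15 alternatives, with adjusted p from 6.84e-09 to 0.0486.

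**Figure D2:**
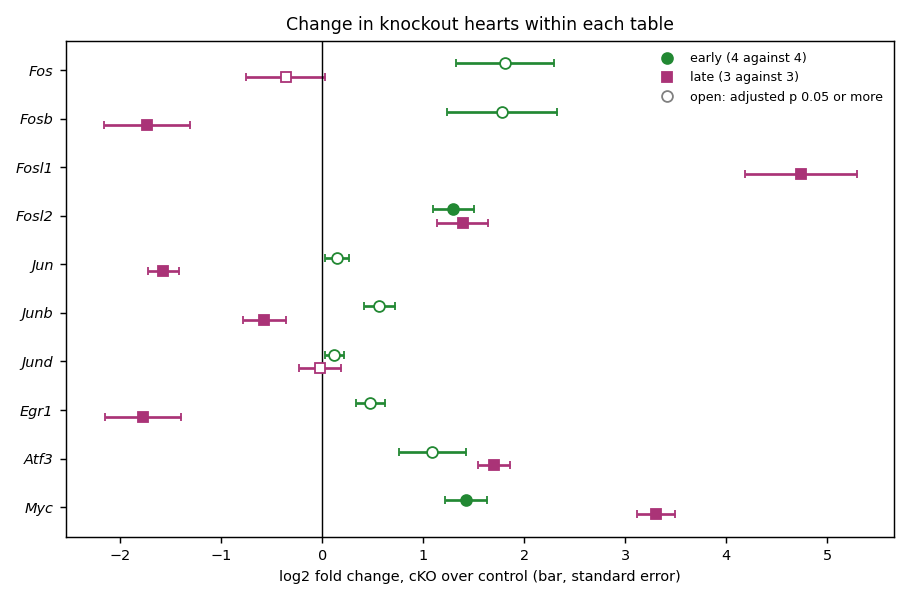
Log2 fold change of cKO over control for each gene, early and late, with bars of 1 standard error from the edgeR fit; filled points are called. Fosl2 lies near 1.30 and 1.39 at the 2 times, Myc goes from 1.42 to 3.31, and Jun, Egr1 and Fosb lie below 0 at the late time.

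Time and table coincide here and cannot be told apart, and no level was set against one from the other table. The change within each table was compared as the genotype-by-time contrast over 14 hearts. The change was more positive late than early for 2 of the 10 genes and more negative for 5, against 29.8% and 31.3% of all 14555 genes. For Myc the late change exceeded the early one by 1.90 in log2 units (SE 0.30, adjusted p = 4.61e-05). For Fosl1 it did so by 4.04 (SE 1.40, adjusted p = 0.0202), a value that rests on 14 early counts and was 2.35 without early control 2 (adjusted p = 0.409).

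The 5 genes whose change was more negative late were Fosb, Egr1, Fos, Jun and Junb. The differences were -3.51 for Fosb (SE 0.79, adjusted p = 0.00123), -2.24 for Egr1 (SE 0.41, adjusted p = 0.000236) and -2.16 for Fos (SE 0.72, adjusted p = 0.0165). They were -1.70 for Jun (SE 0.20, adjusted p = 2.26e-06) and -1.12 for Junb (SE 0.28, adjusted p = 0.00258). Fos was therefore not called at either time, but its changes at the 2 times differed from each other. The change of Fosl2 did not differ between times past the test (0.11, SE 0.36, adjusted p = 0.803), nor did that of Atf3 (0.63, SE 0.46, adjusted p = 0.243) or Jund (-0.13, SE 0.23, adjusted p = 0.659). For Atf3 the difference was 1.04 and called without early cKO replicate 2 (adjusted p = 0.022). That of Jund was -0.41 and called without late cKO replicate 3 (adjusted p = 0.0429).

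Heart by heart, the early rise was uneven. Early cKO replicate 2 was the highest of its group for 8 of 9 genes, all but Jund. It was above every control for 8 genes, replicates 1 and 3 for 7 each, and replicate 4 for only Fosl2, Junb and Myc. No early cKO heart was below every control for any of the 9 genes. Among early controls the highest heart varied, with replicates 1 to 4 highest for 3, 3, 1 and 2 genes. The same counts were not made over all genes tested, so these have no background and describe only the 9 genes. Fam210a stood at 150 CPM in replicate 4, at 135 to 158 CPM in the other early cKO hearts and at 165 to 177 CPM in early controls. The part of the atrial signal in replicate 2 and of the label conflict in replicate 4 in these values was not tested. With both hearts left out, which leaves 2 cKO hearts, the log2 fold change was 1.01 for Fosl2 (adjusted p = 0.0113) and 1.501 for Myc (adjusted p = 0.00492).

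Late, the pattern was shared by all 3 cKO hearts. Each was above every control for Fosl1, Fosl2, Atf3 and Myc, and each was below every control for Fosb, Jun and Egr1. Replicate 3 was also above every control for Jund, replicate 1 was below every control for Jund, and replicates 1 and 2 were below every control for Junb. Late control 2 was the highest control for 6 of 10 genes, a count that was not made over all genes. Without late control 3, the heart with atrial Bmp10, all 8 late calls were kept, with Egr1 at -2.02, Fosl2 at 1.69 and Myc at 3.31 as log2 fold changes.

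**Figure D3:**
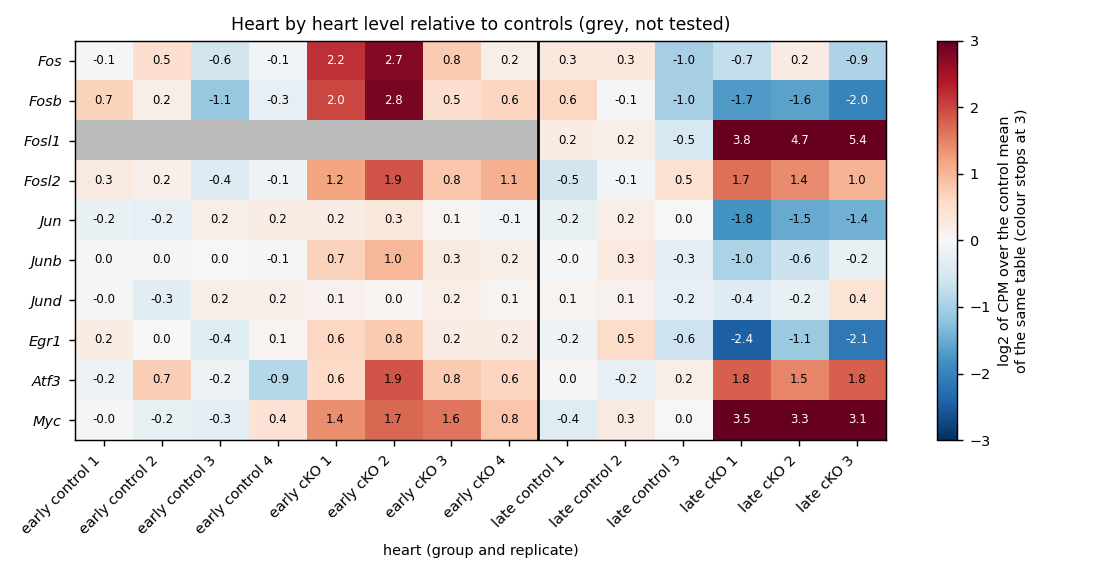
Log2 of the CPM of each gene (vertical) in each of the 14 hearts (horizontal) over the control mean of the same table, as colour and number; grey was not tested. Early cKO replicate 2 carries the highest values for 8 of 9 tested genes, while the 3 late hearts share their signs for the 7 genes whose groups do not overlap.

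Of the 9 genes tested early, Fos and Fosb had the widest spread among early cKO hearts. The highest level there was 5.95 times the lowest for Fos and 5.08 times for Fosb, and 99.7% of tested genes had a smaller ratio than either. For both genes the highest heart was replicate 2, which carried atrial RNA. The lowest was replicate 4, whose labels conflict, for Fos and replicate 3 for Fosb. The median ratio over all genes was 1.22. Early controls also differed 3.50-fold for Fosb and 3.02-fold for Atf3, so the spread was not limited to knockouts. The lowest ratios of the tested genes were 1.10 for Jund among early cKO hearts and 1.07 for Junb among early controls, while Jund reached 1.75 among late cKO hearts and Junb 1.75 among early cKO hearts. Of the genes tested, 8 of 9 exceeded the median ratio in both early groups, 10 of 10 among late controls and 6 of 10 among late cKO hearts.

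The hearts' deviations from their group means showed which genes moved together within groups. Over 14 hearts in 4 groups (log2 of CPM plus 0.1), Fos deviated with Fosb (Pearson r = 0.862), Egr1 (0.719) and Junb (0.657). It deviated less with Myc (0.380), Atf3 (0.355), Fosl2 (0.312) and Jun (0.284), and Jund gave -0.142. These are descriptions over hearts that share libraries and depth. Among 11452 other genes, those most like Fos were Arl16 (0.889), Grhl2 (0.814), Mettl25 (0.814) and Mpzl1 (0.807). Those most like Atf3 were Sfxn2 (0.826), St13 (0.813), Ell2 (0.806) and RP23-56B11.6 (0.799). Those most like Myc were Mki67 (0.947), a marker of dividing cells, Adamts2 (0.936), which processes collagen, Anln (0.923), a scaffold of cell division, and Mfap4 (0.914), a matrix protein. For Fos and Atf3, 0 genes exceeded 0.9, and for Myc 7 did. The highest of 11452 values over 14 hearts can be large by chance alone, and none of them was tested.

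Levels of different genes were compared only per kilobase of exon (GENCODE M21 models, all exons of a gene merged), since longer transcripts give more reads. In early controls the order was Jund (29.4 ± 4.47 CPM per kb, SD, n = 4), Jun (19.5 ± 3.17), then Junb, Atf3, Egr1 and Fosl2 between 4.77 and 2.97, whose neighbours overlapped. Fos (0.957) and Myc (0.952) followed and overlapped, and Fosb (0.0906) and Fosl1 (0.0392) were lowest. The early cKO hearts kept Jund (31.9) and Jun (21.6) on top, followed by 6 genes from Atf3 (8.37) to Myc (2.56) whose neighbours overlapped. Late controls had the same first 3 genes as early controls, with Jund at 32.04, Jun at 19.2 and Junb at 7.03, the last overlapping Egr1 (6.26). In late cKO hearts Myc (13.2 ± 1.88 CPM per kb, SD, n = 3) was next after Jund (31.5 ± 9.67) and ahead of Atf3 (9.82 ± 1.23), and its range overlapped neither of them. Jun (6.45) then overlapped Fosl2 (7.03) and Junb (4.73), and Fosb (0.0650) was lowest.

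The make-up of each family was computed from these values as a share of the family's sum, with no test. In late hearts Jund made up 73.4% ± 2.78 of the Jun family in cKO and 55.0% ± 3.92 in controls (SD, n = 3 each), with no overlap. Jun made up 15.5% ± 2.52 and 33.0% ± 4.26, and Junb 11.1% ± 0.436 and 11.98% ± 1.08. Within the Fos family, Fosl1 was 11.9% ± 7.93 of the sum in late cKO hearts and 0.739% ± 0.153 in controls. Fos was 19.3% ± 6.69 and 46.4% ± 18.3, and Fosl2 was 68.2% ± 9.45 and 48.9% ± 20.2, with overlapping ranges for both of these genes. Both overlaps came from late control 3, the heart with atrial Bmp10, at 25.5% for Fos and 71.7% for Fosl2. Late controls 1 and 2 held 59.5% and 54.1% for Fos and 33.4% and 41.6% for Fosl2, outside the cKO ranges. Early shares had overlapping ranges, with Jund at 52.9% ± 4.58 and 54.7% ± 1.82 and Fosl2 at 69.1% ± 11.7 and 73.5% ± 4.18.

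The Jun family outweighed the Fos family in every group. Per length, the sum of Jun genes over the sum of Fos genes was 14.04 ± 4.92 in early controls (range 9.17 to 19.8) and 6.21 ± 2.17 in early cKO hearts (3.55 to 8.48). It was 10.5 ± 0.334 in late controls (10.2 to 10.8) and 4.32 ± 1.84 in late cKO hearts (3.12 to 6.45). The cKO range lay below the control range at both times. Fosl2 made up the largest mean share of the Fos sum in every group (48.9% to 73.5%), so the ratio largely follows Fosl2. The lowest early ratio, 3.55, and the largest Fos sum, 18.2 CPM per kb, were those of early cKO replicate 2, which carried atrial RNA. Early, the Fos sum went from 4.06 ± 0.875 to 11.1 ± 5.17 CPM per kb, and the Jun sum was 53.7 ± 7.36 in controls and 60.6 ± 4.29 in cKO hearts. Late, the Fos sum was 5.56 ± 0.456 and 10.3 ± 1.47, and the Jun sum 58.3 ± 6.67 and 42.7 ± 11.5. The Jun sums of the 2 groups overlapped at both times, late with cKO replicate 3 at 55.6 and control 3 at 52.2 CPM per kb.

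**Figure D4:**
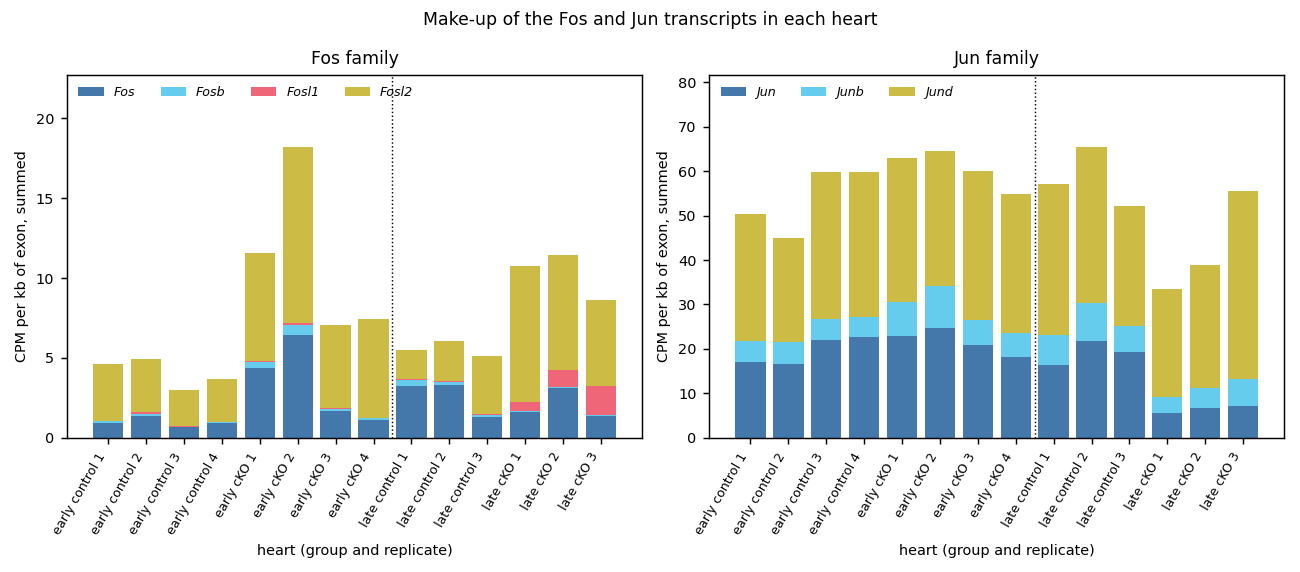
Summed level of the Fos family (left) and the Jun family (right) in each of the 14 hearts, in CPM per kb of exon; bars are stacked by gene. In late cKO hearts Jund takes 73.4% of the Jun bar on average against 55.0% in controls, and Fosl1 takes 11.9% of the Fos bar against 0.739%.

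Related genes were counted from lists of the pathway's other parts. Early, none of the 136 list entries tested was called by edgeR in either direction (Dusp1 is in 2 lists). At an unadjusted p under 0.05 there were 30 higher and 6 lower (5.54% and 4.71% of all genes), and DESeq2 called 4 higher and 2 lower. The other immediate early genes had an early median of 0.29 with 17 of 23 above 0, the AP-1 target genes 0.29 over 14 genes, and the Myc target genes 0.10 with 20 of 26 above 0. The early median of heat shock and acute stress genes was 0.14 over 13 genes, with Hspa1a at 1.29 (adjusted p = 0.468) and Hspa1b at 1.02 (adjusted p = 0.535), both inducible chaperones.

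Late, the counts of each list stand beside 31.8% of all genes called higher and 33.2% called lower. Of the 23 other immediate early genes tested, 7 rose and 3 fell, with a median of 0.30 against -0.02 over all genes. Maff, a small Maf protein, rose by 2.34 (adjusted p = 3.82e-06) and Btg2, an antiproliferative gene, by 1.89 (adjusted p = 6.04e-06). Klf2, a flow-induced endothelial factor, fell by 1.67 in log2 units (adjusted p = 3.14e-05) and Dusp1, a MAP kinase phosphatase, by 1.04 (adjusted p = 0.000178). Of 11 other AP-1 family bZIP genes, 4 rose and 7 fell (median -0.52). Mafk, a partner of CNC factors, rose 5.94-fold (adjusted p = 4.3e-07), and Batf2, an interferon-induced bZIP gene, fell by 2.68 in log2 units (adjusted p = 0.000119).

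Upstream of these genes, 6 of 22 MAP kinase and SRF input genes rose and 8 fell late (median -0.13), beside the same shares of 31.8% and 33.2% of all genes. Map2k1, which encodes MEK1, rose by 0.67 (adjusted p = 0.000478), and Map2k6, a kinase for p38, fell by 3.95 in log2 units (adjusted p = 1.45e-05). Among 16 phosphatase and feedback genes 3 rose and 7 fell (median -0.37). Dusp4, a nuclear MAP kinase phosphatase, rose 16.8-fold (adjusted p = 3.33e-06), and Dusp7, which acts on ERK, fell by 2.64 in log2 units (adjusted p = 1.17e-06).

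Downstream, 6 of 14 AP-1 target genes rose late and 6 fell (median 0.76), beside 31.8% and 33.2% of all genes. Cd44, a hyaluronan receptor, rose by 1.86 (adjusted p = 2.42e-05), while Ccnd1, cyclin D1, fell by 1.76 in log2 units (adjusted p = 3.98e-06) and the chemokine gene Ccl2 by 3.41 (adjusted p = 1.33e-05). Of 26 Myc target genes, 16 rose and 3 fell (median 0.79). Odc1, the first enzyme of polyamine synthesis, rose 4.77-fold (adjusted p = 3.53e-06) and Ncl, nucleolin, 3.90-fold (adjusted p = 4.06e-06), while Hk2 and Cad fell by 0.94 and 0.80 in log2 units (adjusted p = 7.47e-05 and 0.000454).

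In the Myc and Max network, 1 of 14 genes rose late and 5 fell (median -0.15), beside 31.8% and 33.2% of all genes. Mycn, the Myc gene of the embryonic heart, fell by 4.58 in log2 units (SE 0.38, adjusted p = 1.09e-05), from 6.23 ± 2.21 to 0.261 ± 0.0739 CPM (SD, n = 3 each), opposite to Myc. Mycl rose by 1.78 (adjusted p = 0.00361), and Mlxipl, the carbohydrate response factor, fell by 3.01 in log2 units (adjusted p = 2.82e-06). Max, the obligate partner of Myc, was at -0.21 (adjusted p = 0.159). Of 13 heat shock and acute stress genes 4 rose and 5 fell (median 0.08). Hsp90aa1 rose 4.52-fold (adjusted p = 1.8e-06) and Hspb1 3.92-fold (adjusted p = 1.72e-05), while Hsph1 fell by 1.32 in log2 units (adjusted p = 4.11e-05).

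**Figure D5:**
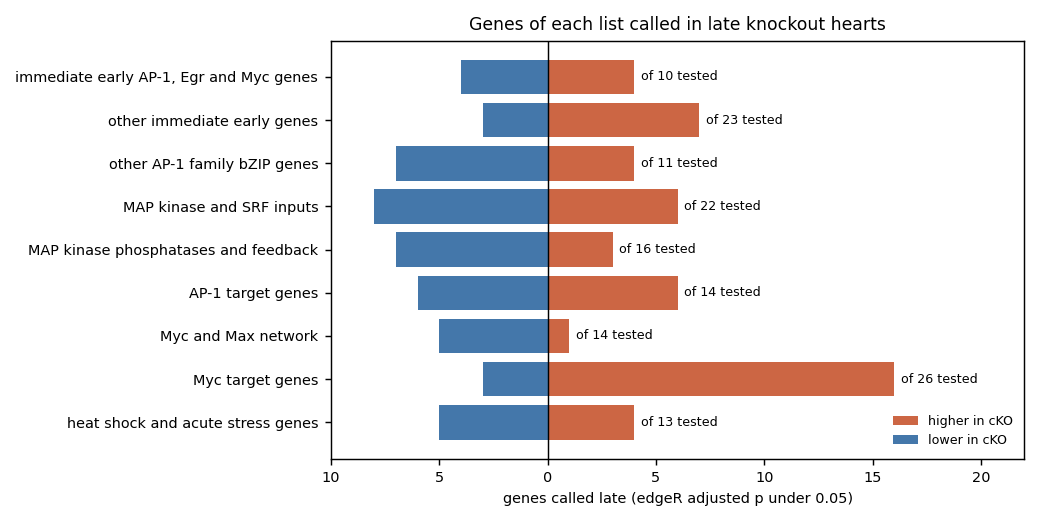
Number of genes of each list called in late cKO hearts, higher to the right and lower to the left, with the number tested written beside each bar. The Myc target genes have 16 higher and 3 lower of 26, and the other AP-1 family genes 4 higher and 7 lower of 11.

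Several cell marker sums and the mitochondrial share also differed between the late groups. Early totals were 15657298 to 19466469 counts and late totals 29989076 to 35750964. Fam210a was at 135 to 158 CPM in early cKO hearts and 165 to 177 in early controls, and at 64.6 to 70.7 and 120 to 134 late. In bulk tissue, fewer cells of a type and less RNA per cell cannot be told apart. The late counts of called markers stand beside 31.8% of all genes called higher and 33.2% called lower, and several are near those shares. The summed level of 6 endothelial markers was 349 to 396 CPM in late cKO hearts and 813 to 992 in controls, and all 6 were called lower. The sums were 112 to 133 and 182 to 192 for macrophages (4 of 6 lower), and 627 to 835 and 968 to 1262 for fibroblasts (3 of 6 lower). Those of smooth muscle and pericytes were 1553 to 2292 and 1179 to 1311 (1 of 6 higher, 5 lower), and those of red cells 196 to 378 and 42.7 to 74.2 (5 of 5 tested higher). Cardiomyocyte sums overlapped late, at 56439 to 67747 and 59261 to 67820, and mitochondrial transcripts took 11.2% to 16.0% of late cKO counts and 19.7% to 22.6% of control counts. Adipocyte sums were 241 to 351 and 537 to 699 (2 of 4 tested lower), neutrophil sums 2.496 to 4.91 and 2.26 to 3.63 (1 of 3 higher, 1 lower), and lymphocyte sums 0.199 to 0.308 and 1.37 to 1.92 (none tested). The 5 atrial markers summed to 1749 to 2888 CPM in late cKO hearts and 131 to 947 in controls (1 higher, 1 lower), and 4 or 5 of them were above 0 in each late heart. Ly6g, which defines neutrophils, was at 0 in all 14 hearts. Early, none of 41 markers tested was called by edgeR, and 1 was called by DESeq2. At an unadjusted p under 0.05 in edgeR, 2 were higher and 4 lower, against 5.54% and 4.71% of all genes. The early cardiomyocyte sum was 50227 to 54214 CPM in cKO hearts and 56506 to 62286 in controls, without overlap, while early endothelial sums overlapped at 750 to 864 and 712 to 843 CPM. The part of these shifts in the late changes of Jun, Egr1, Myc and the other genes was not tested.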

How the data were processed

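The authors deposited integer read counts by gene symbol, 1 table per time, raw as far as the values show. The labels' protocols give poly-A selection of 100 ng of RNA, TruSeq V2 libraries and single-end 100-nt reads. Per the submitters' processing notes, Trimmomatic 0.36, STAR 2.6.0c and the GRCm38 build were used, while how reads were assigned to genes, and with which annotation and strandedness, is not given in the sources used here. Samples were grouped by title.

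Counts were fitted with edgeR 4.0.16 in R 4.3.3 (TMM, filterByExpr with a minimum count of 10 and a minimum total of 15, quasi-likelihood F test, Benjamini-Hochberg over all genes tested). A standard error is the log2 fold change over the square root of F. Single values were compared by exact two-sided permutation of log2 CPM. Alternatives were size factors and the Wald test of DESeq2 1.42.0, no filter, a replicate block, 1 fit of all 14 libraries, early cKO replicate 4 counted as a control, and each replicate left out. Leaving out early cKO replicates 2 and 4 together was chosen after seeing the data. Hearts of a group differed by a chi-square per gene of 3.69 or more, so none was a copy of another. The largest values were 97.3 and 91.9, for late cKO replicate 3 against replicates 1 and 2. The procedure was tested on simulated data.

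All 10 genes are named. From each related list, at most 2 called genes a direction with the smallest p were eligible, and Max, Hspa1a and Hspa1b were added after their values were seen. Of the eligible genes, 1 is not reported here. For Fos, Atf3 and Myc the 4 genes with the highest correlation of deviations were taken, among named genes at an average log2 CPM of at least 1 in both tables. The genes and lists were chosen with earlier results of these data known.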

Additional observations from a re-analysis of the deposited data

Results flagged for a closer look

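Of 18 groups of 4 hearts examined (9 genes in the early groups), 1 had a heart far from the others: Atf3 stood at 31.6 CPM in early cKO replicate 2. Chance alone sets apart about 1 heart in 20 such groups. The same heart held 164 CPM of Bmp10, and its part in the Atf3 value was not tested.

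The change in cKO hearts differed between the early and late times by the genotype-by-time test for 7 genes. Late minus early, the log2 difference was -2.16 for Fos, -3.51 for Fosb, 4.04 for Fosl1, -1.70 for Jun, -1.12 for Junb, -2.24 for Egr1 and 1.90 for Myc. Time and table coincide, so a difference between times and one between tables cannot be told apart.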

How the results depend on the processing

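The direction of 9 genes early was the same in every alternative run, as was that of 9 of the 10 genes late (Jund excepted). Early calls depended most on the settings. Against 2 of the 9 genes tested that were called higher, DESeq2's Wald test called 4 (Fosb and Junb added), no filter on low counts 7, and the replicate block 4 (Fos and Atf3 added). Leaving out 1 heart gave 1 to 4. Over all genes, 70 were called higher early, against 124 by DESeq2, 260 with no filter and 39 to 115 with 1 heart left out. The 13 called lower became 52 by DESeq2, 128 with no filter, 65 with early cKO replicate 4 as a control, 7 in 1 fit of all 14 libraries and 4 to 66 with 1 heart left out. With early cKO replicate 4 as a control, 3 of the 9 genes were called higher (Fos, Junb and Myc). Among fits with 1 heart left out, the highest early counts came without early cKO replicate 4. Early controls 2, 3 and 4 and cKO replicate 2 each lowered a count over all genes by over 1.5 times when left out.

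Late, Junb was the only one of the 8 called genes to lose its call in any alternative, and it did so under the replicate block (adjusted p = 0.0692) and without each of 4 hearts. With 1 heart left out, the late log2 change of Jund ran from -0.29 to 0.14, its difference between times from -0.41 to 0.0656, and that of Fosl2 from -0.10 to 0.41. The genes whose change was more positive late numbered 1 to 3 over single hearts, against 2. Replicate numbers did not pair the hearts: correlations of same-numbered hearts' deviations were -0.0889 to -0.0392 early and -0.514 to -0.0633 late, and none was highest with its own number. The replicate block also brought the difference of Atf3 between times past the test (adjusted p = 0.0141). It changed no other call of a difference between times among the 10 genes. Depth limits Fosl1 early (14 counts over 8 hearts) and Fosb, whose late cKO level was 10 to 16 counts a heart.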
